A study of Caenorhabditis elegans with 2 samples.

Results

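The gene zfr-1 (Y95B8A.8, WBGene00022388) encodes the zinc finger protein whose binding was mapped here, and it carries the tag used for the mapping. It is 1 gene of the 19973 annotated protein-coding genes, and its locus was taken as the gene with 2000 bp on each side. All peaks with a summit in this region were collected from all 8 deposited peak lists, which gave 42 entries, 40 of them in ranked lists and 2 in thresholded lists. The choice used the gene's annotation and not its signal.

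ZFR proteins form a conserved family with zinc fingers and a DZF domain, and RefSeq names the product of zfr-1 a DZF domain-containing protein. In mammals, proteins of this family bind double-stranded RNA and take part in the control of pre-mRNA splicing. Proteins that bind chromatin sometimes have sites at their own genes, so the gene's own promoter is a natural place to look in a binding map.

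The data came from chromatin immunoprecipitation and sequencing of whole Caenorhabditis elegans. Both samples were young adults at 63 hours of strain RW12277, with the allele st12277[Y95B8A.8::TY1::EGFP::3xFLAG] on chromosome I, in which CRISPR placed a TY1 epitope, enhanced green fluorescent protein and a triple FLAG epitope after the gene. The animals had been synchronised by bleaching and starvation at the L1 larval stage, chromatin was sonicated to 200 to 800 bp, and an antibody against GFP was used. The 2 samples were biological replicates 1 and 2 of 1 group. No group without the tag was analysed here, so no contrast between groups was possible, and with 2 samples no test across samples was made. Whole animals were used, so a peak does not show the tissue in which it was bound.

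The authors deposited a ranked list of all candidate peaks and a shorter thresholded list for replicate 1, for replicate 2 and for the pair, and a conservative version of both lists for the pair. Each peak has a signal, the value of the authors' peak caller, which was ranked only within 1 list. Between lists it was used only as a ratio, given beside the median of that ratio over other peaks. Each peak also has a score of up to 1000 that follows from the irreproducible discovery rate (IDR). The IDR falls as the rank of a peak becomes more alike between repeated calls. The lowest score in each thresholded list was 830, which corresponds to an IDR of 0.01. The ranked lists held 95095 peaks for both replicates, 46119 for replicate 1 and 44169 for replicate 2, and the thresholded list of both replicates held 1694. Sequencing depth is unknown, because peak lists hold no read totals.

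The gene lies on the plus strand of chromosome I, from 853451 to 872827 on ce11, in both the Ensembl and the RefSeq annotation of that assembly. Its 19377 bp make it longer than 99.0% of protein-coding genes, whose median length is 2027 bp. A single transcript is annotated, with 13 exons that sum to 3312 bp and 12 introns that take up 82.9% of the gene. The first 5 exons lie close together, and intron 5 (4384 bp), intron 6 (2650 bp) and intron 7 (2484 bp) are the longest. The annotated 5′ UTR has 8 bp. Many transcripts of this species receive a spliced leader, so an annotated 5′ end need not be the start of transcription. The stop codon, where a C-terminal tag would join, is at 871816 to 871818, followed by a 3′ UTR of 1009 bp. The last 73 bp of the gene overlap the end of pde-6, a phosphodiesterase gene on the opposite strand.

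The locus had 1 site past the threshold, which lay upstream of the gene, and candidates under the threshold elsewhere. In the thresholded list of both replicates, 1 peak fell within the locus, at 852050 to 852339 with its summit at 852195, which is 1256 bp upstream of the annotated 5′ end. By the same rule 12.5% of all protein-coding genes had at least 1 peak in that list. Such shares are over genes of all lengths, and under this rule a longer gene has a wider region. The conservative list held the same peak (11.6% of genes). The thresholded lists of replicate 1 and replicate 2 held 0 peaks at the locus, where 6.01% and 5.79% of genes had 1. All 4 ranked lists had peaks at the locus, as they did at 84.0% to 87.8% of genes (87.8% for both replicates, 87.3% for the conservative list, 84.0% for replicate 1 and 86.4% for replicate 2).

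**Figure D1:**
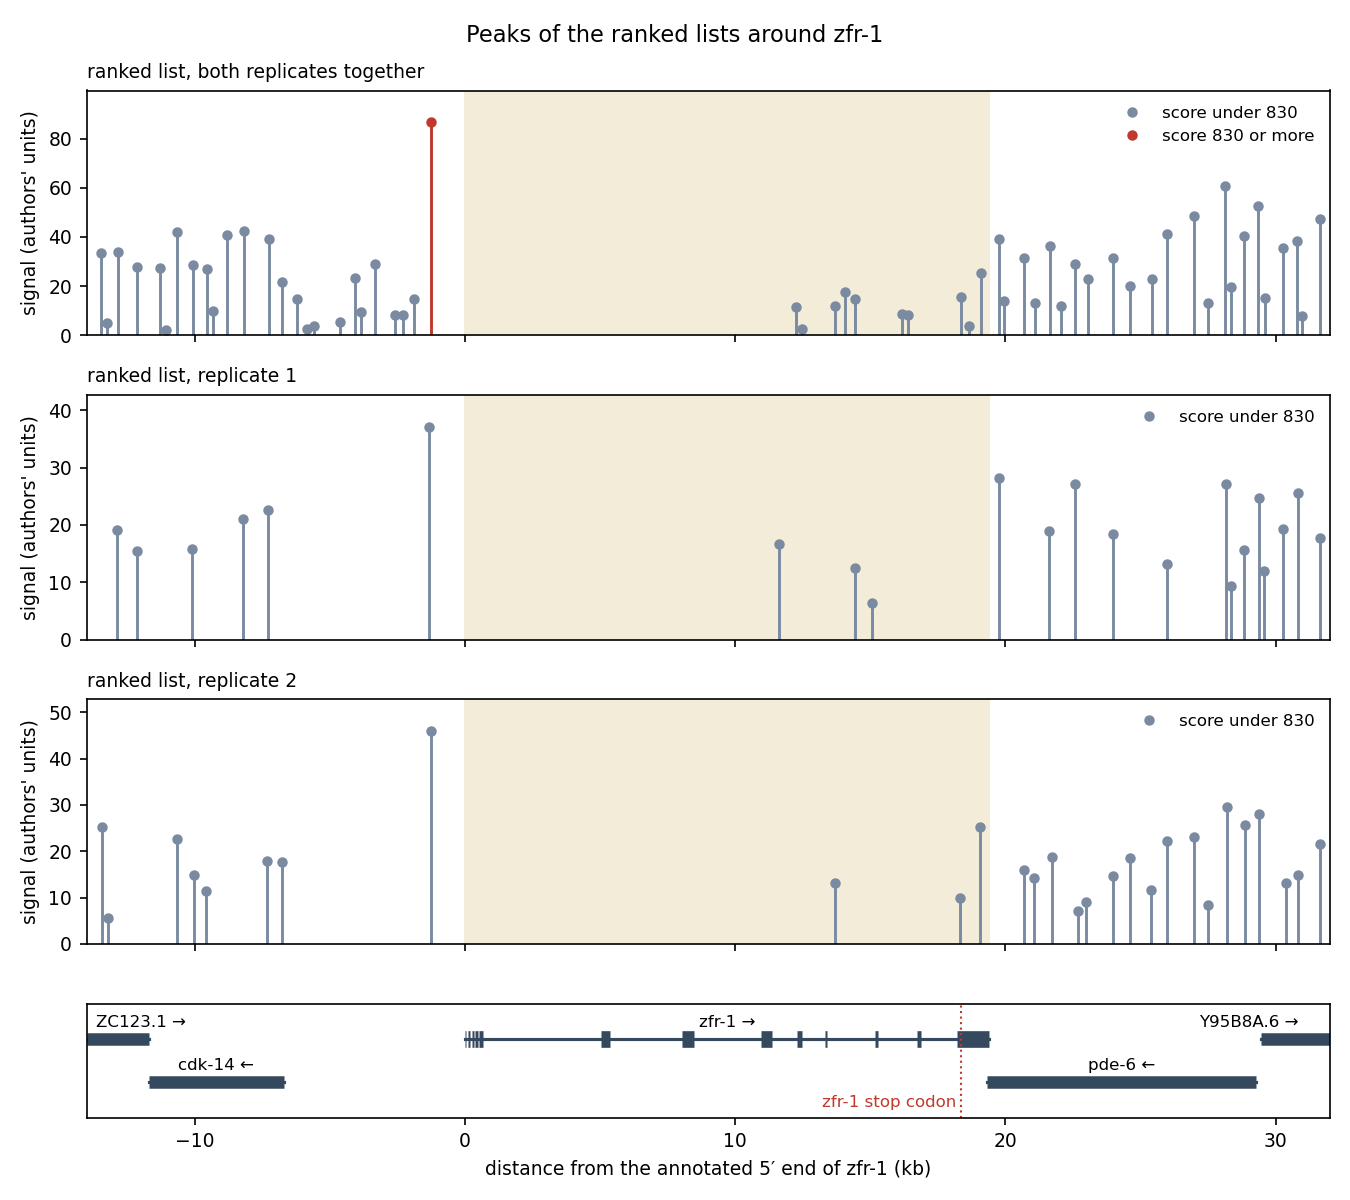
Signal of each peak of 3 ranked lists (vertical axis, authors' units, on a separate scale for each list) against its distance from the annotated 5′ end of zfr-1 (horizontal axis, kb), with the gene shaded and gene models below (exons of zfr-1 as boxes, arrows for the strand). The upstream site at -1256 bp is the highest point in the panel of both replicates and in that of replicate 2, as is the site at -1347 bp in that of replicate 1, and a score of 830 or more is reached only by the site in the panel of both replicates. The first 11625 bp of the gene hold no summit in any of these panels.

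The upstream site had a signal of 86.6 in the list of both replicates, where it ranked 664 of 1694 and stood above 60.8% of peaks. The median signal of that list was 78.6, with quartiles of 65.6 and 101. In replicate 1 alone the signal was 37.1, higher than 96.8% of the 46119 ranked peaks. In replicate 2 alone it was 45.9, higher than 98.6% of the 44169 ranked peaks. In each ranked list it was thus among the strongest few percent, and in the thresholded list it was close to the middle.

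The site passed the IDR threshold in the list of both replicates and missed it in each replicate alone. Its IDR was 0.0344 in replicate 1 (score 607) and 0.0180 in replicate 2 (score 724), both above 0.01. In the list of both replicates it was 0.00123 (score 1000), and in the conservative ranked list it was 0.00158. A site called on both replicates but in neither alone was common, since 776 of the 1694 peaks (45.8%) were of this kind. Among those 776, zfr-1 had a higher signal than 94.5% (median 66.5). Of the 662 that could be matched in the same way to ranked peaks of each replicate, 16 had scores at least as high as zfr-1 in each replicate, zfr-1 included.

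The replicates placed the summit of the site less than 100 bp apart, though not within 50 bp. Over all ranked peaks of replicate 1, 30.0% had a summit of replicate 2 within 100 bp and 19.2% within 50 bp. Those shares include weak candidates. Of the 1694 thresholded peaks, 1508 had a ranked summit within 100 bp of their own in each replicate, so the site was ordinary among them in this respect. At zfr-1 the summit was at 852104 in replicate 1 and at 852195 in replicate 2, 91 bp apart, against fragments of 200 to 800 bp. The signal of replicate 2 was 1.24 times that of replicate 1. Across the 1508 thresholded peaks matched to a summit no more than 100 bp away in each replicate, the median of that ratio was 0.949, with quartiles of 0.743 and 1.21. The pooled signal was 1.04 times the sum of the replicate signals at zfr-1, and the median was 0.995.

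**Figure D2:**
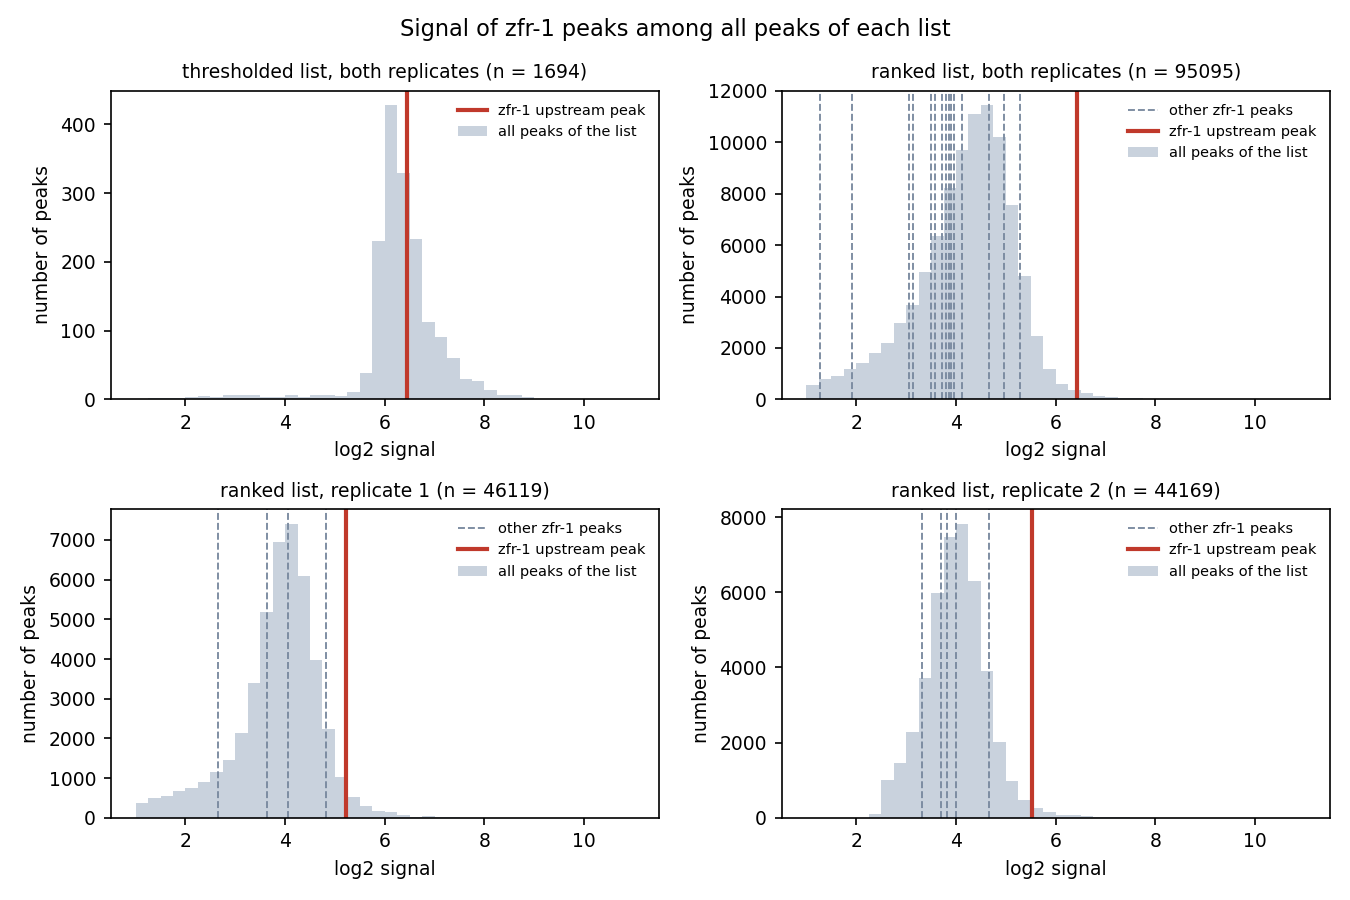
Number of peaks (vertical axis) by log2 signal (horizontal axis) in the thresholded list of both replicates and in 3 ranked lists, with the upstream site of zfr-1 as a solid line and its other peaks as dashed lines. The upstream site stands near the middle of the 1694 thresholded peaks and far to the right in each ranked list.

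The site lay farther from its gene than most. There were 1261 protein-coding genes with a thresholded summit 0 to 2000 bp upstream of the 5′ end, and the nearest such summit was at a median of 432 bp (quartiles 204 and 1018). The 1256 bp of zfr-1 exceeded 81.1% of these distances, and 25.5% of the genes had their nearest summit more than 1000 bp away. No other 5′ end of a protein-coding gene was nearer. The divergent neighbour cdk-14, a cyclin-dependent kinase gene, starts 5432 bp away on the other side of the site, so the site lies in the intergenic stretch between both genes, on the side of zfr-1.

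**Figure D3:**
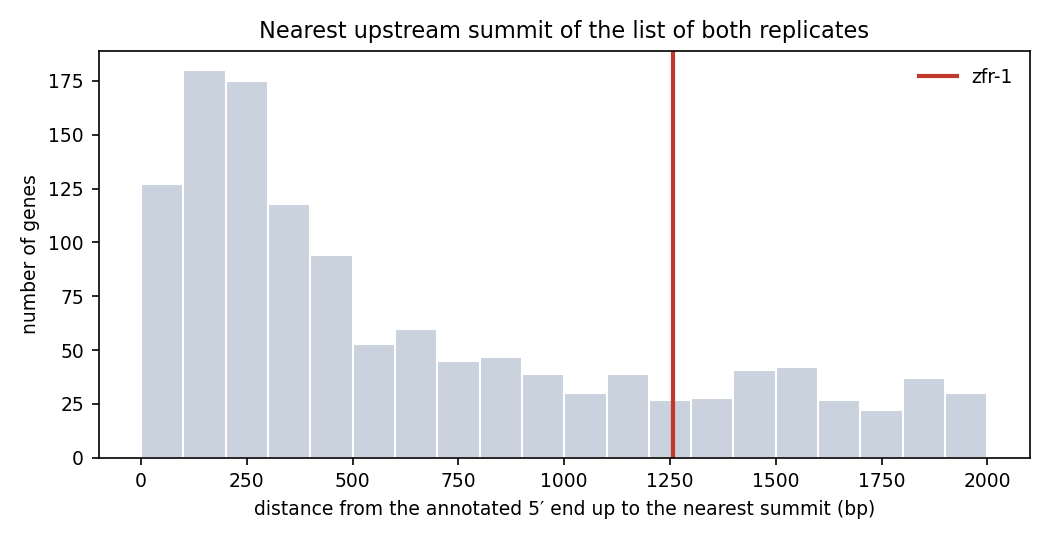
Number of protein-coding genes (vertical axis) by the distance from the annotated 5′ end up to the nearest summit of the thresholded list of both replicates (horizontal axis, bp, bins of 100 bp), for the 1261 genes with such a summit within 2000 bp. The line at 1256 bp marks zfr-1, beyond the upper quartile of 1018 bp.

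At the annotated 5′ end itself no candidate was found. None of the 4 ranked lists had a summit within 1000 bp of the 5′ end of zfr-1, and the same held for 21.7% of protein-coding genes in the list of both replicates (24.2% in the conservative list, 41.6% in replicate 1 and 39.5% in replicate 2). A thresholded upstream site without any ranked summit within 1000 bp of the 5′ end was found at 14 of the 1261 genes (1.11%). The ranked list holds every thresholded peak, so only the 322 genes whose nearest such site was over 1000 bp away could qualify. This share is therefore not comparable with that of all genes. Among the peaks of the list of both replicates, the 1 nearest to the 5′ end was the upstream site, followed by a weak peak at 851434 to 851723 (signal 14.6, score 37), which replicate 1 and replicate 2 did not hold on their own.

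Within the gene, all peaks lay between intron 8 and the 3′ end, and none passed the threshold. From the 5′ end to the end of intron 7, a stretch of 10953 bp, all 4 ranked lists had 0 summits. From exon 8 to the 3′ end, a stretch of 8424 bp, there were 10 summits in the list of both replicates, 7 in the conservative list, 3 in replicate 1 and 3 in replicate 2. In the list of both replicates, 6 of the 10 lay in introns, 2 in coding exons and 2 in the 3′ UTR. The intronic ones were 1 in intron 8 (signal 11.3), 3 in intron 10 (11.9, 17.4 and 14.9) and 2 in intron 11 (8.77 and 8.38). Each was below the list's median signal of 19.9 and had the lowest score of that list, 37, as 43.3% of its peaks had.

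The replicates did not place the peaks of the gene body at the same positions. In replicate 1 there was 1 peak in intron 8, at 864941 to 865210 (signal 16.7), and 2 in intron 10 (signals 12.5 and 6.33). Replicate 2 had 1 in intron 10, at 867021 to 867276 (signal 13.1), 1 in coding exon 13 (9.95) and 1 in the 3′ UTR (25.2). Of the 5 peaks of replicate 1 at the whole locus, 1 had a summit of replicate 2 within 100 bp, which was the upstream site (20%, exact Clopper-Pearson 95% interval 0.505% to 71.6%). Over all ranked peaks of replicate 1 the share was 30.0%, and with 5 peaks the interval is too wide to compare the locus with it. Such intervals cover counting error only.

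The tagged end of the gene had candidates that stayed under the threshold. The peak nearest to the stop codon, at 871669 to 871958, had its summit 2 bp before the first base of the codon, with a signal of 15.6 and a score of 80, and 35.5% of ranked peaks were lower. Replicate 2 had a peak of signal 9.95 there, and replicate 1 had none. Reads from the inserted tag have no position on the reference assembly, which is of an untagged strain. The strongest peak within the 3′ UTR, at 872411 to 872700, had a signal of 25.3 (score 219). It was found in replicate 2 (25.2, score 169) and not in replicate 1.

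The strongest peak within 1000 bp of the annotated 3′ end lay 374 bp beyond it, inside pde-6. It spanned 873056 to 873345, with a signal of 39.1 that exceeded 90.4% of ranked peaks. Its IDR of 0.0151 (score 756) made it the peak of the locus closest to the threshold from below, while the upstream site, at 0.00123, was the only one past it. In the conservative ranked list its score was 224. Replicate 1 had a peak with the same summit (28.2, score 403), and replicate 2 had no summit between 872522 and 874134. Further into pde-6, a peak at 873989 to 874278 had a signal of 31.3 (score 127) and was found in replicate 2 (16.0, score 202).

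Ranked peaks were common at gene ends. In the list of both replicates, 79.7% of protein-coding genes had a summit within 1000 bp of the annotated 3′ end, with a median strongest signal of 30.2. The 39.1 at zfr-1 exceeded 72.6% of these. In replicate 1 the peak with the same summit exceeded 82.2% of the strongest peaks at gene ends. In replicate 2 the strongest peak was a different one, that of the 3′ UTR with a signal of 25.2, and it exceeded 78.0%.

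The density of ranked peaks at the locus was below the median of long genes, and its ratio to the genome depended on the region and the peaks counted. The 16 summits of the list of both replicates came to 0.684 per kb of the gene and its flanks, against 0.948 per kb over the 6 nuclear chromosomes, a ratio of 0.722. The ratio was 0.465 in replicate 1 and 0.583 in replicate 2. It was 0.969 with flanks of 5000 bp and 0.361 for the stronger part of the list by signal. Among the 979 protein-coding genes of 10 to 40 kb, the median density was 1.11 per kb (quartiles 0.792 and 1.34), and 20.5% of genes were below zfr-1. The longest stretch of the locus with no summit was 13509 bp, against a median of 2808 bp, and it exceeded that of 89.1% of these genes. This stretch was examined after its length had been seen. It ran from the summit of the upstream site to the summit in intron 8 at 865705, and 846 of the 95089 distances between neighbouring summits of the list were at least as long (0.890%).

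Base composition differed between the gene and its flanks, and the share of unique words also differed between the parts of the gene. From the 5′ end to the end of intron 7 the sequence had 29.3% G + C, 79.5% of its bases were soft-masked as repeats or low-complexity sequence in the RefSeq assembly, and 70.2% of its words of 32 bases occurred once in the nuclear genome. From exon 8 to the 3′ end, where peaks were found, the values were 29.3%, 78.6% and 85.4%. In the upstream flank they were 40.8%, 39.7% and 100%. The introns with the lowest shares of unique words included some with summits in the list of both replicates and some without. They were intron 7 (59.7%, 0 summits), intron 11 (59.8%, 2), intron 5 (63.5%, 0) and intron 10 (64.5%, 3). Each of the 13 exons had 100%. No source used here gives the read length, and the part of composition in the stretch without summits was not tested.

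**Figure D4:**
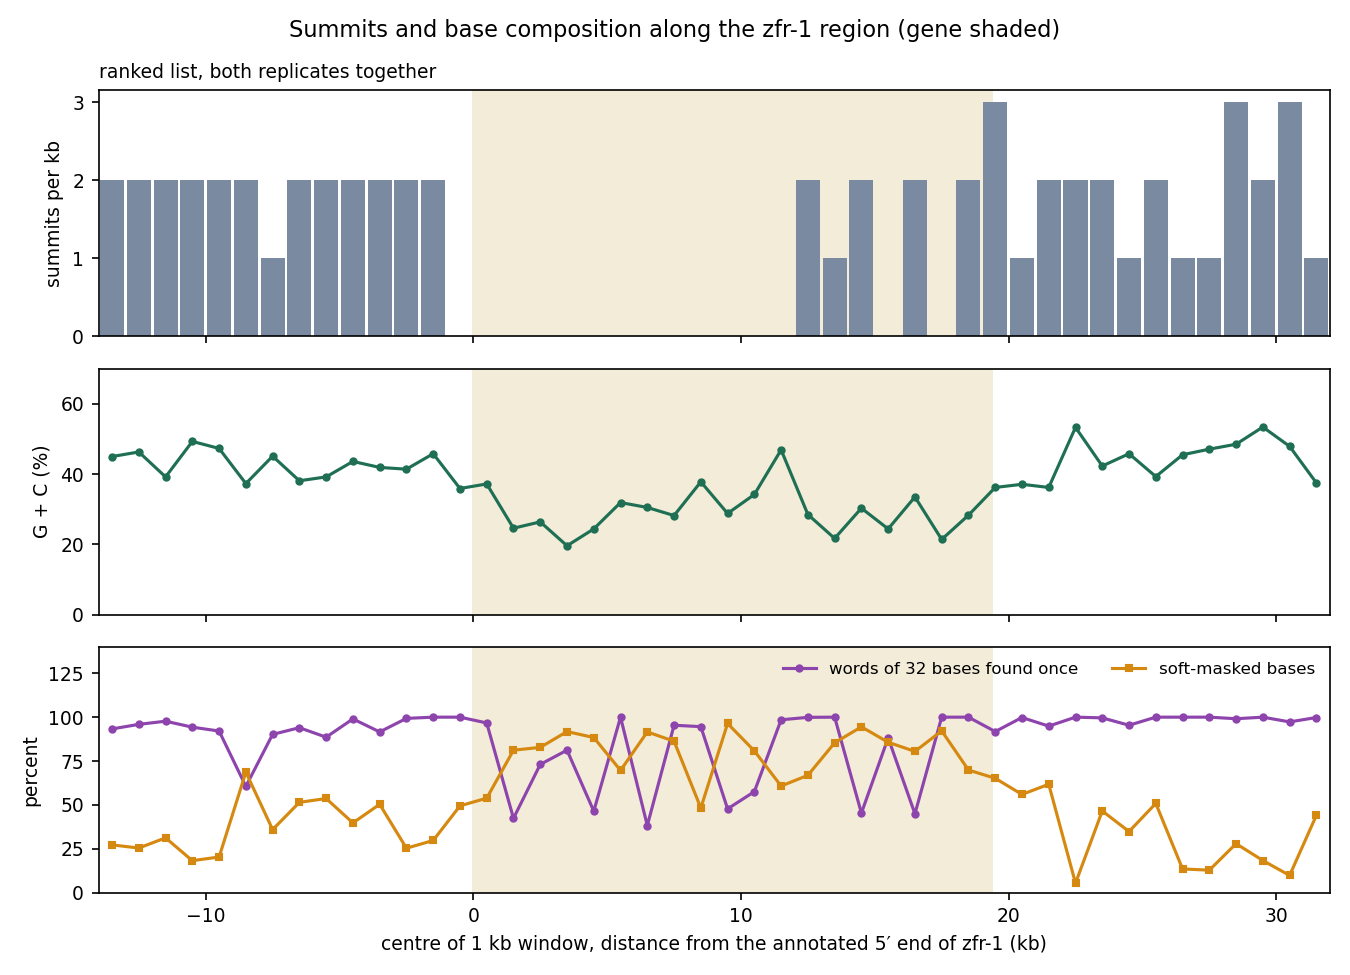
Summits of the ranked list of both replicates per 1 kb window (top, count), G + C content (middle, percent), and the percent of words of 32 bases found once in the genome and of soft-masked bases (bottom), against the distance from the annotated 5′ end of zfr-1 (kb), with the gene shaded. The 15 windows with no summit have a median G + C content of 28.8%, and the 31 windows with a summit have 41.9%. These windows cover the surroundings as well as the gene. Within the gene, the part without summits and the part with summits both have 29.3% G + C.

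Over long genes in general, summits were denser where G + C content was higher. Across the 979 genes of 10 to 40 kb, the Spearman correlation of summit density with G + C content was 0.482, with the share of unique words 0.0633 and with the soft-masked share -0.115. These genes share the same libraries, so the correlations are descriptions with no test. With its flanks, zfr-1 had 31.1% G + C (median of the genes 35.3%), and 5.11% of the genes had less. Its soft-masked share of 74.1% exceeded 99.4% of them. Among the 327 genes with the lowest G + C content, the median density was 0.852 per kb, and 42.5% of them were below zfr-1. The median of the longest stretch with no summit was 4574 bp among these, and that of zfr-1 exceeded 72.8% of them.

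**Figure D5:**
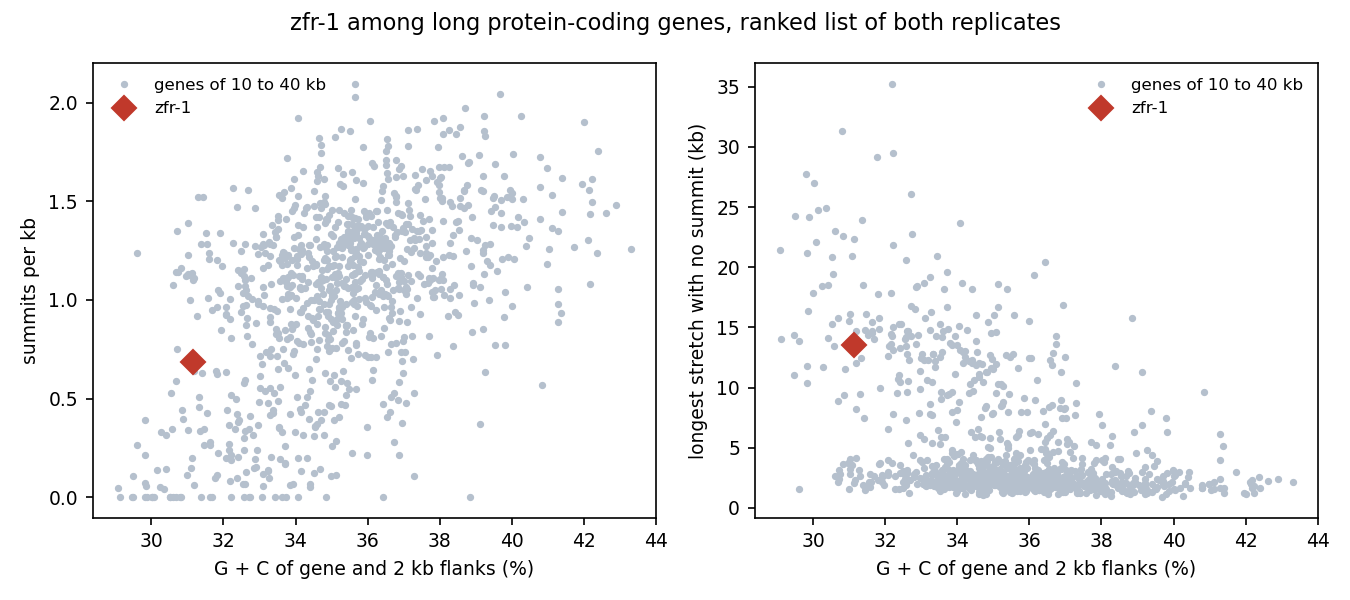
Summits per kb (left) and the longest stretch with no summit in kb (right) against the G + C content of the gene and its 2 kb flanks (percent), for the 979 protein-coding genes of 10 to 40 kb in the ranked list of both replicates. zfr-1 (diamond) lies at 31.1% G + C, with 0.684 summits per kb.

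The upstream site differed in composition from the gene it precedes. Its 290 bp had 46.6% G + C, 8.97% soft-masked bases and 100% unique words. Over the 1694 thresholded peaks the medians were 41.0%, 24.6% and 100%, and the G + C content at zfr-1 exceeded that of 75.4% of them. The peak nearest to the threshold beyond the 3′ end, in contrast, had 86.2% soft-masked bases and 71.7% unique words. The bases of these peaks lie on chromosome I and are not printed.

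Counted inside the genes, all 6 neighbours had denser ranked peaks than zfr-1. None held a peak as strong as the upstream site, which itself lies outside zfr-1. The 3 protein-coding genes on the left were zfh-2, a zinc finger homeobox gene, ZC123.1 and cdk-14, and those on the right were pde-6, Y95B8A.6 and him-19, a gene of meiotic chromosome pairing. None of the 6 had a thresholded peak inside or within 2000 bp, which 12.5% of all genes had in the list of both replicates. In the list of both replicates, summits inside these genes came to 1.43, 1.33, 1.99, 1.71, 1.92 and 0.563 per kb in that order, and to 0.516 per kb inside zfr-1. The strongest signals inside them were 60.6 in pde-6 and 58.2 in Y95B8A.6, against 25.3 inside zfr-1, and both were below the 86.6 of the upstream site. The neighbour with the lowest density, him-19, had 34.5% G + C, and the other 5 had 41.1% to 45.7%.

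In the thresholded list of both replicates, the upstream site was far from other peaks. The next ones were 315 kb to the left, at 536808 to 536924 near wwp-1 (signal 245), and 182 kb to the right, at 1034249 to 1034538 near Y34D9A.3 (signal 65.5). The median distance of a thresholded peak to its nearest neighbour was 5.09 kb, and 20 of the 1694 peaks, zfr-1 included, were at least 182 kb from theirs. The interval of 498 kb between the flanking peaks held 60 protein-coding genes and 643 ranked summits, or 1.29 per kb. One ranked peak in it was stronger than the site of zfr-1, at 934034 to 934323 (signal 93.5, score 1000), 4304 bp from the nearest 5′ end, that of nas-30. It was not in the thresholded list, and no source states why. The conservative thresholded list held 2 peaks in the interval, the site of zfr-1 and another, so the distances to the next peak hold for the list of both replicates and not for the conservative list.

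The genes whose upstream signals were most like those of zfr-1 were found over 3 ranked lists (replicate 1, replicate 2 and both), as the smallest Euclidean distance of log2 signal among the 1246 genes with a thresholded site and a ranked peak upstream in each. They were ZK1321.4 (distance 0.0570, signals 36.2, 45.5 and 84.3), C28A5.1 (0.0668, 37.4, 43.9 and 87.3), gskl-2 and imp-1, which share 1 peak (0.0951, 38.7, 47.5 and 83.2), and tba-2 (0.0976, 38.2, 44.3 and 82.3). The median distance over the 1246 genes was 0.765. tba-2 encodes an alpha tubulin and imp-1 an intramembrane protease. In position they differed from zfr-1, with the nearest thresholded summit 908, 260, 253, 618 and 137 bp upstream.

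Genes of double-stranded RNA pathways were compared with zfr-1, as genes related to it by the known role of its family. Of 16 listed genes, 15 matched a protein-coding gene, and 1 of these 15 (6.67%, against 12.5% of all genes) had a thresholded peak inside or within 2000 bp. This was tsn-1, which encodes a nuclease with Tudor and staphylococcal nuclease domains, with a signal of 55.7 at rank 1556 of 1694. Its summit was 3415 bp from the 5′ end of a gene of 3348 bp, so just past the 3′ end. No listed gene had a peak in the conservative list or in the thresholded list of either replicate. Over all genes the shares were 11.6% in the conservative list, 6.01% in replicate 1 and 5.79% in replicate 2. With flanks of 5000 bp the count in the list of both replicates was 3. The share of all genes with those wider flanks was not computed, so that count has nothing to be set against. The adenosine deaminase genes adr-1 (strongest ranked signal 47.7) and adr-2 (55.1), the Dicer gene dcr-1 (44.2), the Drosha gene drsh-1 (44.1) and its partner pash-1 (23.6) had none. Over the 15 genes the strongest ranked signal ran from 21.4 to 59.1 (median 47.4), and all were below the 86.6 at zfr-1. Only tsn-1 among them had a thresholded peak. The same signal over all genes without a thresholded peak was not computed, so whether the difference is particular to these genes is unknown. With 15 genes, 1 gene more or fewer moves the share by 6.67 percentage points, and the difference from all genes was not tested.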

How the data were processed

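Per the labels, 2 biological replicates of 1 group were measured. The deposited lists are in ce11, per the file headers. They give a start, end and summit, the authors' signal (scale not stated), a score deposited from 0 to 1000 and, in ranked lists, the deposited −log10 of the IDR. Scores recomputed from that rate differed by at most 1 from those deposited. The ranked list for both replicates was the one that held all 1694 thresholded peaks. No source used here names the aligner or the peak caller, and depth is unknown.

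Ensembl release 115 (WBcel235) gave genes. RefSeq sequence of the same assembly gave G + C content, soft-masked bases and words of 32 bases, counted on both strands of the 6 nuclear chromosomes, and 0 peaks ended beyond a chromosome. A percentile is the percent of peaks or genes below. Counting functions were tested on simulated data. No p-values were computed. Tables were computed in Python 3.11.15 with pandas 2.3.3 and numpy 2.4.6, intervals with scipy 1.17.1, and plots drawn in matplotlib 3.10.9.

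The gene, the double-stranded RNA list and the measures were chosen with earlier results of these data known. Named were the gene, its peaks, 3 neighbours on each side, the 5 genes most like it and genes of the list. Genes outside that rule were chosen after their values were seen. Alternatives were the conservative lists, single replicates, other flanks, match distances and windows, and the stronger part of the ranked list.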

Additional observations from a re-analysis of the deposited data

How the results depend on the processing

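No paired analysis was possible because there was 1 group. The count of 1 thresholded peak at zfr-1 was the same with the conservative list, with ranked peaks of score 830 or more and with flanks of 5000 bp. It was 0 with flanks of 1000 bp, which the site at 1256 bp lies beyond by construction, and 0 in both lists that leave out 1 replicate, so there the percentile of the strongest peak had no value. That percentile, 60.8, was 56.8 in the conservative list. The density ratio of ranked peaks, 0.722, ranged from 0.465 to 0.583 with 1 replicate left out. It was 0.544 for the gene alone, 0.969 with flanks of 5000 bp and 0.361 for the stronger part of the list by signal. The share of replicate 1 peaks found in replicate 2, 20%, was 0% within 50 bp, since the summits of the upstream site were 91 bp apart. The percentile of the strongest peak at the 3′ end, 90.4, was 89.5 in the conservative list and 91.6 without replicate 2. Without replicate 1 it was 88.0, for a different peak, that of the 3′ UTR. The count of double-stranded RNA genes with a peak, 1, was 0 in the conservative list and 0 with either replicate left out. Over all genes the shares were 11.6% in the conservative list, 5.79% without replicate 1 and 6.01% without replicate 2. The count also changed with the flanks. It was 3 with flanks of 5000 bp, for which the share of all genes was not computed. The causes of the other changes were not tested. The limits are 2 replicates, unknown depth and the lack of a control library among the data used.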

Other observations

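The 14 genes with a thresholded site 0 to 2000 bp upstream and no ranked summit within 1000 bp of the 5′ end were listed after zfr-1 had been seen among them. By signal they began with srv-14, a gene of the serpentine receptor family (255.6, 1839 bp upstream), K12H4.6 (249, 1113 bp), ZK1053.1 (101, 1870 bp) and srg-69 (99.8, 1826 bp), followed by zfr-1 at rank 5. The others ran from H06I04.3 (81.0) to tns-1 (41.5), a tensin gene. For 8 of the 14, the 5′ end of another gene was nearer to the site, as at K12H4.6, where that of K12H4.5 was 499 bp away, and at tns-1, where that of ubl-5 was 168 bp away. For the other 6, which were srv-14, zfr-1, nhr-249, C38C10.3, T25B6.6 and ZC449.1, the gene's own 5′ end was the nearest of a protein-coding gene. Among these 6, zfr-1 had the second highest signal. srv-14 had a peak in the thresholded list of each replicate, and zfr-1 and the other 4 had 0 in both.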
